A study of Mus musculus with 8 samples.

Results

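The 10 genes described here encode CC chemokines of macrophages: *Ccl2*, *Ccl3*, *Ccl4*, *Ccl5*, *Ccl7*, *Ccl9*, *Ccl12*, *Ccl17*, *Ccl22* and *Ccl24*. They were chosen by name out of 18194 genes on the array that have a probe set of 1 symbol. Each was read on the brightest probe set annotated to it alone. Of 11 such probe sets, *Ccl9* has 2 and every other gene has 1.

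RNA was measured on 8 Affymetrix arrays from bone marrow-derived macrophages (BMDM) of C57Bl/6 mice, 2 wild type (WT) and 2 lacking miR-155 (miR-155-/-). The marrow came from femurs, was kept frozen in liquid nitrogen, and after thawing was differentiated for 7 days with 15% L929-conditioned medium. Cells of each donor received LPS (100 ng/ml, 24 h) or IL-10 (20 ng/ml) followed after 5 min by LPS, which gave 4 groups of 2 arrays, written as WT(LPS) or miR-155-/-(LPS) and as WT(LPS + IL-10) or miR-155-/-(LPS + IL-10). Every group received LPS, so the response to LPS itself is not measured. Donor ages are not stated in the labels. By the labels the WT donors are female and the miR-155-/- donors male, so genotype and sex cannot be told apart.

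CC chemokines are small secreted proteins with adjacent cysteines near the amino end, and they guide leukocytes through G protein-coupled receptors. *Ccl2*, *Ccl7* and *Ccl12* attract monocytes through CCR2. *Ccl3*, *Ccl4* and *Ccl5* act on monocytes, T cells and NK cells, and *Ccl9* acts through CCR1. *Ccl17* and *Ccl22* attract CCR4-bearing T cells and *Ccl24* attracts eosinophils through CCR3, and these genes are known in macrophages given IL-4 or IL-13. LPS switches on inflammatory chemokine genes through TLR4, NF-κB and interferon regulatory factors, while IL-10 acts through STAT3. miR-155 is a microRNA of activated macrophages that represses transcripts matching its seed.

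The mature miR-155-5p that the miR-155-/- donors lack is shown first, since genotype is one axis of the design. It lies at chr16:84714143-84714165 on the plus strand of GRCm38.p6 (RefSeq), and capitals mark the seed, bases 2 to 8.
miR-155-5p: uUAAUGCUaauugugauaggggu

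Promoter sequences (250 bases before a start to 50 after, RefSeq, GRCm38.p6) were given for 5 of the 10 genes, *Ccl3*, *Ccl9*, *Ccl12*, *Ccl17* and *Ccl22*. For *Ccl17* the whole window lies inside the RefSeq span of the gene (chr8:94809380-94812038), so its start is not the first base of the gene. Both strands were searched for the κB consensus (by its name), the interferon-stimulated response element (ISRE, by its name), TTCNNNGAA (the STAT palindrome), TGANTCA (AP-1) and TATAAA (the TATA box). Of all 32851 promoters, 4.51% hold the κB consensus, 3.44% the ISRE, 8.30% TTCNNNGAA, 7.81% TGANTCA and 13.6% TATAAA. A match is a description of letters in the window. *Ccl9* and *Ccl12* are shown because both were read higher with IL-10 in every donor, and *Ccl17* because it held the only match to the STAT palindrome among these 5. Capitals mark the matches.
*Ccl9* at chr11:83578587-83578886, minus strand: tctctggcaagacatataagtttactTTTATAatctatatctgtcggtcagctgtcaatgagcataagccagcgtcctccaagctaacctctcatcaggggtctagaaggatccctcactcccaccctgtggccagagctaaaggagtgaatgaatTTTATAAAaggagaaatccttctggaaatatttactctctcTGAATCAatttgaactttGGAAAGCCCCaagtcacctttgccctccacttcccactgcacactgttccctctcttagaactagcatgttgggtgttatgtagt
*Ccl12* at chr11:82101595-82101894, plus strand: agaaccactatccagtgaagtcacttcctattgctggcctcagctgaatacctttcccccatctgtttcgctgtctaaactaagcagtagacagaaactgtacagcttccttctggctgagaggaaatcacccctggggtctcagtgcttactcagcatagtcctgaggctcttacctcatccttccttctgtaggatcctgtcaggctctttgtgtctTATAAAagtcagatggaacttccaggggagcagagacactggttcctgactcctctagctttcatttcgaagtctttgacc
*Ccl17* at chr8:94810203-94810502, plus strand: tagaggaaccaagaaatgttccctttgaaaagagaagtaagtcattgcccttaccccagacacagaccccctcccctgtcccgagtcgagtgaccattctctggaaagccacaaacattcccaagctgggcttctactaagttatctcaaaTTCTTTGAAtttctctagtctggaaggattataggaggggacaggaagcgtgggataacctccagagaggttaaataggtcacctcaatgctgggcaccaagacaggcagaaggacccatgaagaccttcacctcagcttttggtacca
In *Ccl9* the κB match, on the opposite strand, runs from position -35 to -26 relative to the start and the AP-1 match from -53 to -47. The other capitals of *Ccl9* are TATA matches on either strand, of which those at -94 to -89 and -92 to -87 overlap. The TATA match of *Ccl12* lies at -31 to -26. The STAT palindrome of *Ccl17* lies at -99 to -91 relative to the start inside that gene. No match to these motifs was found in the windows of *Ccl3* and *Ccl22*.

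Values are RMA-normalised log2 signals, and a difference is on the log2 scale. The median of an array lay between 3.88 and 3.97. All 8 macrophage markers read above the array median on every array, and the log2 of their summed level was 15.5 to 15.6. Markers of fibroblasts and stroma (12 of 13 measured) summed to 13.5 on both arrays of WT donor 1, against 7.06 to 9.24 elsewhere, and 11 of the 12 were highest in that donor. Of the 8 measured dendritic cell markers, 3 were below the median on all arrays and the sum was 6.89 to 7.92. T and NK cell markers summed to 5.32 to 6.23 (5 of 7 below the median on all arrays), B cell markers to 5.05 to 5.44 (2 of 4) and eosinophil, mast cell and basophil markers to 5.43 to 6.66 (6 of 7). Neutrophil markers summed to between 10.91 and 13.03, with 4 of 7 below the median on all arrays. *Mir155hg*, the host transcript of miR-155, read 1.70 to 4.02 over the 8 arrays. The labels and methods do not say whether that probe set falls within the deletion, so it checks no genotype label.

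Of the 10 genes, 7 gave a high signal in all 4 groups and 3 did not. *Ccl2*, *Ccl3*, *Ccl4*, *Ccl5*, *Ccl7*, *Ccl9* and *Ccl12* read between 10.3 and 13.2 on every array. *Ccl4* lay above 92.7% of probe sets on the array where it ranked lowest, and the other 6 lay above at least 98.1% on every array. *Ccl17* read 4.21 to 4.88, just above the array medians, and lay above 52.8% to 58.1% of probe sets. *Ccl22* (2.62 to 3.37) and *Ccl24* (3.06 to 3.49) were below the median of every array. The genes known from IL-4 stimulation thus stayed near or under the median of the array with and without IL-10 and in both genotypes.

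**Figure D1:**
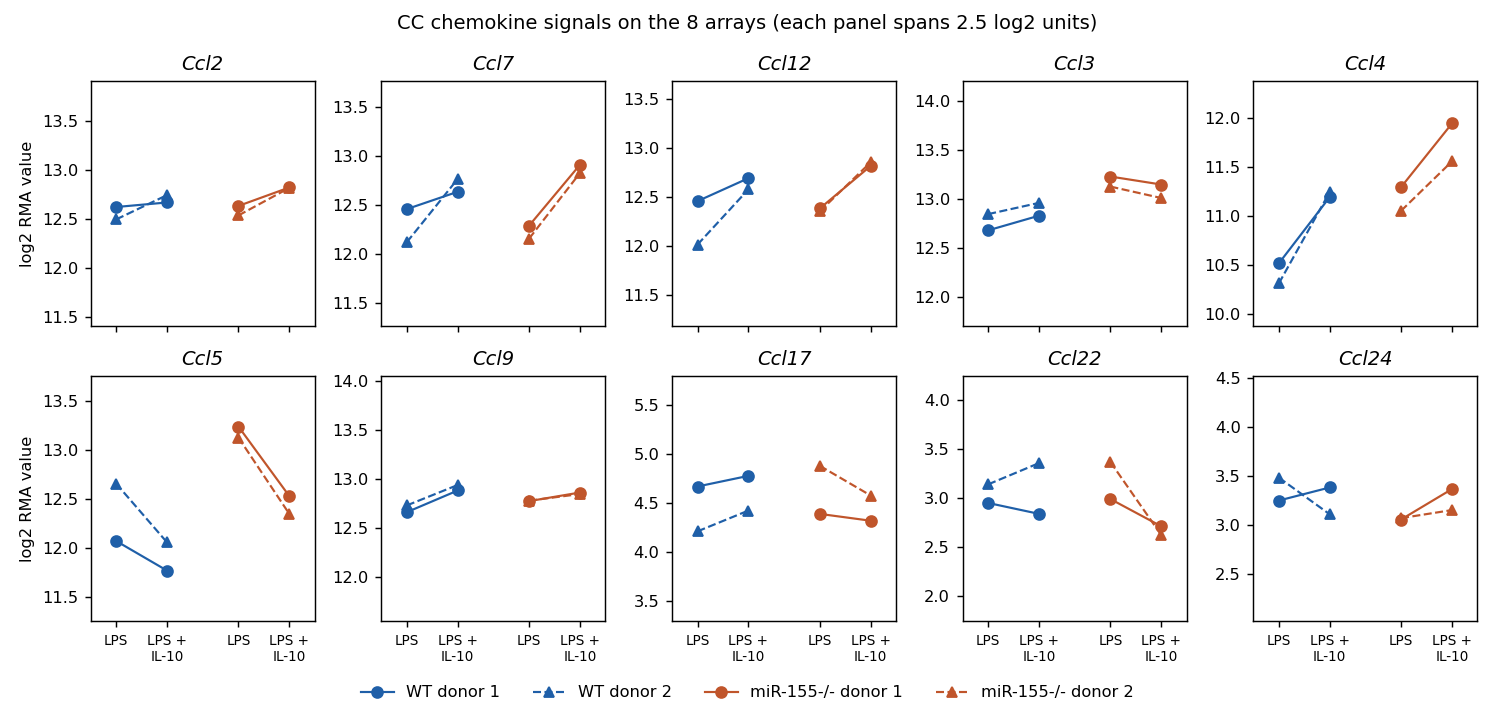
Deposited log2 RMA values (y axis, each panel spanning 2.5 log2 units) of the 10 CC chemokine genes on the 8 arrays, with 1 line for each donor from LPS to LPS + IL-10, WT in blue and miR-155-/- in orange. The lines of *Ccl4* rise and those of *Ccl5* fall in all 4 donors, while *Ccl17*, *Ccl22* and *Ccl24* stay below 5.

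How IL-10 moved the chemokine genes was asked within each genotype and over both. Averaged over both genotypes, *Ccl4* and *Ccl7* rose with IL-10, by 0.69 (1.62-fold) and 0.53 (1.44-fold), and the other 8 genes did not pass the test (limma, adjusted p under 0.05). With the donor as a fixed block, *Ccl4* and *Ccl5* passed and *Ccl7* did not. Over all 45014 probe sets, 1.16% were called higher and 1.42% lower in this comparison. *Ccl2*, *Ccl4*, *Ccl7*, *Ccl9* and *Ccl12* read higher with IL-10 in all 4 donors and *Ccl5* lower in all 4, beside 10.6% of all probe sets that were above and 11.1% that were below in every donor (14.7% and 17.9% of those with a mean of at least 6). The median difference of the 10 genes was 0.09 and that of all probe sets 0.01. In RNA of whole cultures, fewer cells of a type and less RNA per cell cannot be told apart. With IL-10 the neutrophil sum was higher in every donor (12.10 to 12.20 in WT with LPS alone and 13.03 on both arrays with IL-10, 10.91 and 11.07 against 12.43 and 12.60 in miR-155-/-) and the dendritic sum was lower. The neutrophil sum followed *S100a8* (10.82 to 12.99), while *Camp*, the other neutrophil marker above the array median on all arrays, read lower with IL-10 in all 4 donors, *S100a9* read lower in both miR-155-/- donors and higher in both WT donors, and *Ngp*, *Elane*, *Mpo* and *Cxcr2* stayed below the median on all arrays. In the dendritic list *Itgax*, an integrin gene, was lower with IL-10 (difference -1.28, adjusted p = 0.0298) and was the only 1 of 8 to pass the test. Of the 8, 4 differences were positive and 4 negative, with a median of -0.01. The part of these markers in the chemokine differences was not tested.

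*Ccl4*, which attracts T cells and monocytes, read 10.52 and 10.31 on the WT arrays with LPS alone and 11.20 and 11.25 with IL-10 added. In miR-155-/- BMDM it read 11.30 and 11.06 with LPS alone and 11.95 and 11.56 with IL-10 added. Within each genotype the arrays with IL-10 lay above those without, and the lowest group was WT(LPS) and the highest miR-155-/-(LPS + IL-10). The groups between them overlapped. The rise with IL-10 was 0.69 ± 0.11 (SE, n = 4 donors, limma, adjusted p = 0.0228). It was 0.81 ± 0.15 in WT (adjusted p = 0.168) and 0.58 ± 0.15 in miR-155-/- (adjusted p = 0.106), with 2 donors each. The call ended without any 1 of the 8 arrays (adjusted p = 0.0511 to 0.125) and without both arrays of WT donor 1 (0.76, adjusted p = 0.051). The donors' differences were 0.51 to 0.93. With the donor as a fixed block the call held (adjusted p = 0.0211).

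*Ccl7*, a monocyte attractant that binds several CC receptors, read 12.46 and 12.12 on the WT arrays with LPS alone and 12.63 and 12.77 with IL-10 added. In miR-155-/- BMDM it read 12.29 and 12.16 with LPS alone and 12.91 and 12.83 with IL-10 added. All 4 arrays with IL-10 lay above all 4 without it, and the genotypes overlapped under LPS. The rise was 0.53 ± 0.10 (SE, n = 4 donors, limma, adjusted p = 0.0456). WT donor 1, with its high stromal markers, gave the smallest difference, 0.18, against 0.62 to 0.67 in the other 3 donors. Without both arrays of that donor the difference was 0.65 (adjusted p = 0.0389). With 1 array left out the adjusted p was 0.0478 to 0.167, and the call held only without WT(LPS) replicate 1. With the donor as a fixed block, which pairs the arrays of a donor, it ended (adjusted p = 0.0725). Within genotypes the difference was 0.41 ± 0.14 in WT (adjusted p = 0.469) and 0.65 ± 0.14 in miR-155-/- (adjusted p = 0.0688).

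*Ccl12* and *Ccl2*, the other monocyte attractants, gave smaller differences. *Ccl12* read 12.46 and 12.02 on the WT arrays with LPS alone and 12.69 and 12.58 with IL-10 added, against 12.38 and 12.35 and then 12.82 and 12.86 in miR-155-/- BMDM. All arrays with IL-10 again lay above all without it. The averaged difference was 0.43 ± 0.10 (SE, n = 4 donors, limma, adjusted p = 0.089), and 0.52 without WT donor 1 (adjusted p = 0.0547). In WT it was 0.40 ± 0.14 (adjusted p = 0.483) and in miR-155-/- 0.47 ± 0.14 (adjusted p = 0.160).
*Ccl2*, the main ligand of CCR2, read 12.62 and 12.49 on the WT arrays with LPS alone and 12.67 and 12.74 with IL-10 added, against 12.63 and 12.53 and then 12.82 on both arrays in miR-155-/- BMDM. The values spanned 0.33 over the 8 arrays. The averaged difference was 0.19 ± 0.08 (SE, n = 4 donors, limma, adjusted p = 0.284), and that of WT donor 1 was again the smallest, at 0.05 against 0.19 to 0.28. WT donor 1 also gave the smallest rise of *Ccl12* (0.23) and on the dimmer of the *Ccl9* probe sets (0.18), and the smallest fall of *Ccl5* (-0.30). It gave the largest difference on the brighter *Ccl9* probe set (0.22) and for *Ccl3* (0.15). For *Ccl4* its difference, 0.68, was above those of both miR-155-/- donors (0.65 and 0.51). The part of the stromal signal was not tested. Leaving that donor out removes all else about it too and leaves 1 WT donor.

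*Ccl5* (RANTES), which attracts T cells and monocytes and is known as an interferon-responsive gene, went the opposite way. It read 12.07 and 12.66 on the WT arrays with LPS alone and 11.77 and 12.06 with IL-10 added, against 13.24 and 13.13 and then 12.53 and 12.35 in miR-155-/- BMDM. WT(LPS + IL-10) was the lowest group and miR-155-/-(LPS) the highest, and miR-155-/-(LPS + IL-10) lay within the range of WT(LPS). The averaged IL-10 difference was -0.60 ± 0.13 (SE, n = 4 donors, limma, adjusted p = 0.0652). T and NK cells also make *Ccl5*, and their markers, of which 5 of 7 were below the array median on all arrays, summed to 6.17 and 6.23 in WT donor 2 and 5.32 to 5.60 elsewhere; their part was not tested. The *Ccl5* difference passed the test without WT donor 1 (-0.67, adjusted p = 0.039) and with the donor as a fixed block (-0.60, adjusted p = 0.0353). The difference was -0.45 ± 0.18 in WT (adjusted p = 0.514) and -0.75 ± 0.18 in miR-155-/- (adjusted p = 0.0874).

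*Ccl9*, a CCR1 ligand made by myeloid cells, gave different sizes on its 2 probe sets. The brighter one read 12.66 and 12.73 on the WT arrays with LPS alone and 12.89 and 12.94 with IL-10 added, against 12.78 on both arrays and then 12.87 and 12.85 in miR-155-/- BMDM. Its donors differed by 0.07 to 0.22 and it did not pass the test. The dimmer one read 11.49 and 11.20 on the WT arrays with LPS alone and 11.67 and 11.95 with IL-10 added, against 11.13 and 11.20 and then 11.76 and 11.82 in miR-155-/- BMDM. On that probe set *Ccl9* rose with IL-10 by 0.55 ± 0.11 (SE, n = 4 donors, limma, adjusted p = 0.0487), close to the threshold of 0.05. Without WT donor 1 the difference was 0.69, with a single WT donor left. For this probe set the fits with 1 array left out and with the donor as a fixed block were not read, so how firm the call is was not tested. On both probe sets every array with IL-10 lay above every array without it.

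*Ccl3*, a CCR1 ligand, showed no common direction with IL-10. It read 12.68 and 12.85 on the WT arrays with LPS alone and 12.83 and 12.96 with IL-10 added, against 13.23 and 13.13 and then 13.15 and 13.01 in miR-155-/- BMDM. Both WT donors read higher with IL-10 (differences of 0.15 and 0.11) and both miR-155-/- donors lower (-0.08 and -0.12). The difference between these effects was -0.23 with a 95% interval of -0.62 to 0.15, which did not pass the test. Averaged over both genotypes, *Ccl3* differed by 0.02 with a 95% interval of -0.18 to 0.21. The interval of *Ccl4*, its neighbour on the chromosome, was 0.44 to 0.94, and the difference between these genes was not tested.

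*Ccl17* read 4.67 and 4.21 on the WT arrays with LPS alone and 4.78 and 4.43 with IL-10 added, against 4.39 and 4.88 and then 4.32 and 4.58 in miR-155-/- BMDM, and all groups overlapped. *Ccl22* read 2.95 and 3.14 on the WT arrays with LPS alone and 2.84 and 3.36 with IL-10 added, against 2.99 and 3.37 and then 2.71 and 2.62 in miR-155-/- BMDM. Its difference in miR-155-/- BMDM was -0.51 ± 0.19 (SE, n = 2 donors, limma, adjusted p = 0.22), at signals below the array median. *Ccl24* read 3.25 and 3.49 on the WT arrays with LPS alone and 3.39 and 3.11 with IL-10 added, against 3.06 and 3.07 and then 3.37 and 3.15 in miR-155-/- BMDM. It was higher with IL-10 in 3 donors and lower in WT donor 2.

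**Figure D2:**
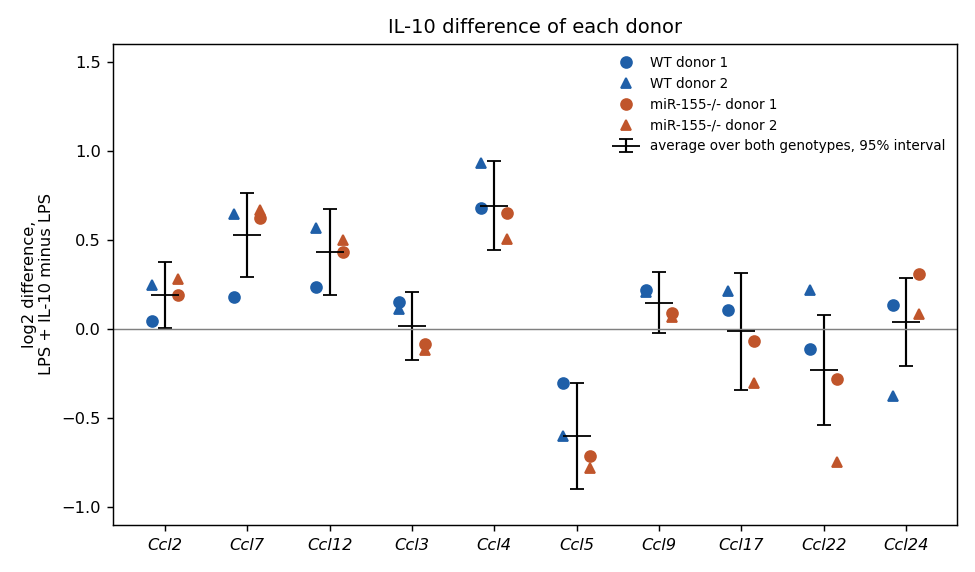
Difference in log2 RMA value between LPS + IL-10 and LPS (y axis) for each donor (points) and averaged over both genotypes (dash with its 95% interval from limma) for the 10 genes. All 4 donors of *Ccl4* lie between 0.51 and 0.93 and all 4 of *Ccl5* between -0.30 and -0.78.

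Within a single genotype none of the 10 genes passed the test. In WT, 0 passed, beside 0.0311% of all probe sets. At an unadjusted p under 0.05, 3 of the 10 were higher and 1 lower there, beside 4.69% and 4.58% of all probe sets. In miR-155-/- BMDM, 0 passed, beside 2.68% of all probe sets. Without adjustment 3 were higher and 2 lower, beside 8.87% and 8.4% of all probe sets. The IL-10 difference was not shown to vary with genotype for any of them (0 passed, beside 0.0333% of all probe sets, and 0 at an unadjusted p under 0.05, beside 10.4%). The intervals of that comparison are wide: for *Ccl4* -0.73 to 0.27 and for *Ccl5* -0.89 to 0.30.

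Whether chemokine signals differed without miR-155 was asked under each treatment. None of the 10 genes passed the test in any of the 3 genotype comparisons. The 3 T cell and monocyte attractants *Ccl3*, *Ccl4* and *Ccl5* had the largest differences under LPS, while *Ccl2*, *Ccl7*, *Ccl9* and *Ccl12* differed by -0.07 to 0.13 under LPS and -0.06 to 0.20 with IL-10. *Ccl17*, *Ccl22* and *Ccl24*, with signals near or below the array median, differed by -0.30 to 0.19 under LPS. With IL-10 they differed by -0.43 to 0.01, and *Ccl3* by 0.18. In miR-155-/-(LPS) against WT(LPS), 0 passed, beside 1.46% of all probe sets. Without adjustment 3 were higher and 0 lower, beside 7.8% and 5.99% of all probe sets. The median difference of the 10 genes was 0.13 and that of all probe sets 0.02.

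*Ccl5* differed by 0.82 ± 0.20 (1.77-fold, SE, n = 2 donors per genotype, limma, adjusted p = 0.129) under LPS. With IL-10 the difference was 0.53 ± 0.20 (adjusted p = 0.524). The arrays of both genotypes did not overlap under either treatment. Without WT donor 1, the one with high stromal markers, the difference under LPS was 0.53 (adjusted p = 0.302) for *Ccl5* and 0.86 (adjusted p = 0.208) for *Ccl4*, each against a single WT array. *Ccl4* differed by 0.76 ± 0.17 (1.69-fold, limma, adjusted p = 0.0982) under LPS and by 0.53 ± 0.17 (adjusted p = 0.429) with IL-10, again without overlap. *Ccl3* differed by 0.42 ± 0.13 (1.33-fold, limma, adjusted p = 0.224) under LPS. With IL-10, 0 of the 10 passed, beside 0.0711% of all probe sets. Without adjustment 2 were higher and 0 lower there, beside 5.59% and 3.35% of all probe sets. Averaged over both treatments *Ccl5* differed by 0.67 ± 0.16 (adjusted p = 0.127), *Ccl4* by 0.65 ± 0.13 (adjusted p = 0.0886) and *Ccl3* by 0.30 ± 0.10 (adjusted p = 0.305), beside 1.17% of all probe sets called. These comparisons share arrays with those of IL-10. Under LPS the neutrophil sum differed as well, at 12.20 and 12.10 in WT against 10.91 and 11.07 in miR-155-/- BMDM. Of 7 neutrophil markers, 2 were called lower and 0 higher in miR-155-/-(LPS) against WT(LPS). Of 12 stromal markers, 1 was called higher and 0 lower there. The part of these markers in the genotype differences was not tested.

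**Figure D3:**
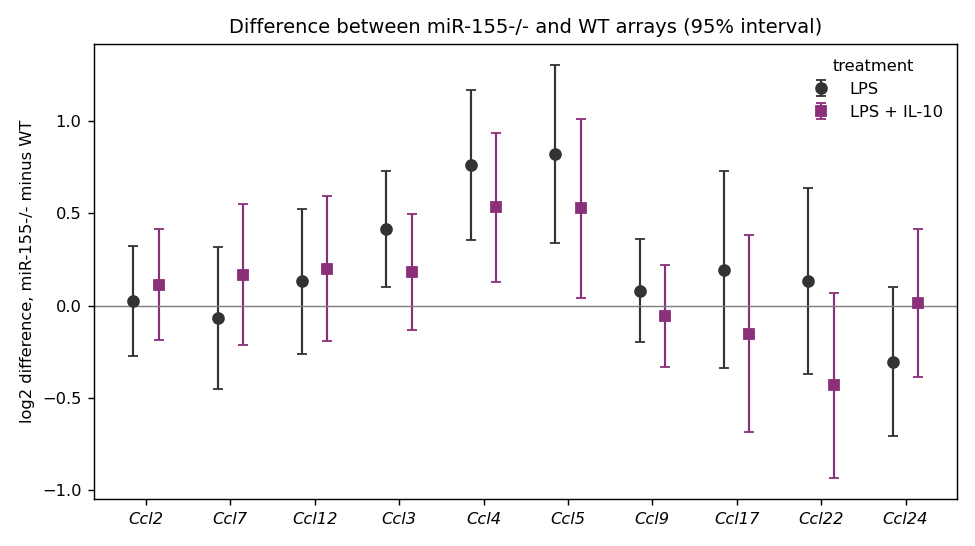
Difference in log2 RMA value between miR-155-/- and WT arrays (y axis) under LPS (circles) and LPS + IL-10 (squares) for the 10 genes, with 95% intervals from limma and 2 donors per genotype. *Ccl4* and *Ccl5* have intervals above 0 under both treatments, but none of the 10 passed an adjusted p of 0.05.

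Most CC chemokine genes of the mouse lie together on chromosome 11. In RefSeq the order there is *Ccl2*, *Ccl7*, *Ccl11*, *Ccl12*, *Ccl8* and *Ccl1*, followed farther along by *Ccl5*, *Ccl9*, *Ccl6*, *Ccl3* and *Ccl4*. In the first group the genes with a signal above the array median, *Ccl2*, *Ccl7*, *Ccl12* and *Ccl8*, all read higher with IL-10 in every donor, as did *Ccl9*, *Ccl6* and *Ccl4* of the second group. In that group *Ccl5* read lower in every donor and *Ccl3* went both ways. *Ccl17* and *Ccl22* lie together on chromosome 8 and *Ccl24* on chromosome 5.

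For genes outside the 10, the largest adjusted p with any 1 of the arrays removed follows each call after the words at most. Of the other CC chemokines, 8 of 10 were measured, and with IL-10 averaged over both genotypes 2 rose and 0 fell. In that comparison 1.16% of all probe sets were called higher and 1.42% lower, which also stands beside the counts of the lists below. *Ccl8*, a ligand of CCR8 in the mouse, read 9.88 and 8.93 on the WT arrays with LPS alone and 10.74 and 10.53 with IL-10 added, against 10.20 and 9.79 and then 11.39 and 10.84 in miR-155-/- BMDM. It rose by 1.17 ± 0.20 (SE, n = 4 donors, limma, adjusted p = 0.0319, at most 0.122). *Ccl6*, a CCR1 ligand of myeloid cells, read 12.59 and 12.07 on the WT arrays with LPS alone and 12.96 and 12.63 with IL-10 added, against 10.96 and 10.59 and then 12.51 and 12.44 in miR-155-/- BMDM. Its lowest group was miR-155-/-(LPS), where *Ccl5* was highest. *Ccl6* rose with IL-10 by 1.08 over both genotypes (adjusted p = 0.00999, at most 0.0534) and by 1.70 in miR-155-/- (adjusted p = 0.00709, at most 0.068). It was lower in miR-155-/- than in WT BMDM under LPS (difference -1.56, adjusted p = 0.0231, at most 0.146). *Ccl1* and *Ccl11* were below the median on every array.

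**Figure D4:**
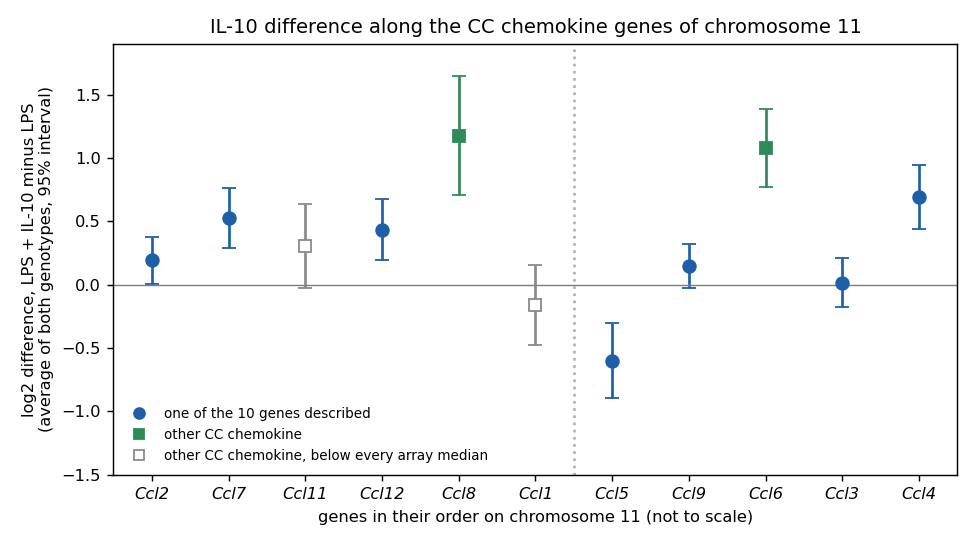
IL-10 difference in log2 RMA value averaged over both genotypes (y axis, 95% interval from limma) for 11 CC chemokine genes in their order on chromosome 11, not to scale, with a dotted line between the groups. *Ccl8* (1.17) and *Ccl6* (1.08) lie highest and *Ccl5* (-0.60) lies lowest.

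Of the CC chemokine receptors and atypical receptors, 13 of 14 were measured. *Ccr1*, the receptor of *Ccl3*, *Ccl5*, *Ccl6* and *Ccl9*, rose with IL-10 averaged over both genotypes (1 higher and 0 lower of 13). It read 9.55 and 9.48 on the WT arrays with LPS alone and 10.76 and 10.87 with IL-10 added, against 6.10 and 7.74 and then 8.64 and 10.11 in miR-155-/- BMDM. The rise was 1.88 ± 0.33 (SE, n = 4 donors, limma, adjusted p = 0.0374, at most 0.179), and 2.45 in miR-155-/- (adjusted p = 0.0475, at most 0.258). *Ccrl2*, an atypical receptor, read 5.10 and 5.68 on the WT arrays with LPS alone and 5.07 and 5.22 with IL-10 added, against 9.36 and 7.90 and then 6.84 and 5.88 in miR-155-/- BMDM. It was higher in miR-155-/- than in WT BMDM under LPS by 3.24 (adjusted p = 0.0276, at most 0.19), where it was the receptor that passed the test (1 higher and 0 lower of 13). In miR-155-/- it fell by 2.27 with IL-10 (adjusted p = 0.0392, at most 0.205). Averaged over both treatments it was higher in miR-155-/- by 2.23 (adjusted p = 0.0454, at most 0.160).

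Among 13 of 14 measured NF-κB and IRF regulators, 0 rose and 2 fell with IL-10 over both genotypes. *Irf7*, a transcription factor of the interferon response, fell by 1.44 (limma, adjusted p = 0.00288, at most 0.0231), and the NF-κB subunit *Rel* fell by 0.86 (adjusted p = 0.0147, at most 0.0772). Both were higher in miR-155-/- than in WT BMDM under LPS, *Irf7* by 1.24 (adjusted p = 0.0381, at most 0.224) and *Rel* by 1.21 (adjusted p = 0.0361, at most 0.217). *Ccl5* was read in the same directions but passed the test in neither comparison of the main fit, and a link was not tested.
Of the 11 genes of the IL-10 and STAT3 response, 4 rose and 1 fell with IL-10. The interleukin 4 receptor chain *Il4ra* rose by 2.11 (limma, adjusted p = 0.0025, at most 0.02) and the repressor *Nfil3* by 1.17 (adjusted p = 0.0031, at most 0.025). The corepressor *Sbno2* rose by 0.90 (adjusted p = 0.00966, at most 0.0564) and the repressor *Etv3* by 0.56 (adjusted p = 0.0204, at most 0.113), while the receptor chain *Il10ra* fell by 0.64 (adjusted p = 0.011, at most 0.0693). *Ccl6*, *Rel*, *Sbno2*, *Etv3* and *Il10ra* stood outside the 6 largest differences of this comparison and were named after their values were seen.
Of 11 genes of STAT6 and alternative activation, 2 rose and 0 fell with IL-10: *Il4ra*, which the previous list also holds, and the mannose receptor *Mrc1*, by 1.57 (limma, adjusted p = 0.00706, at most 0.0528). *Mrc1* was lower in miR-155-/- than in WT BMDM under LPS (difference -2.71, adjusted p = 0.0101, at most 0.0922). Of the 11 differences with IL-10 averaged over both genotypes, 5 were positive and 6 negative, with a median of -0.003. *Irf4*, *Chil3*, *Retnla* and *Mgl2* of this list were below the median on every array. *Ccl17*, *Ccl22* and *Ccl24*, which belong to the setting of this list, did not pass the test in any of the 7 comparisons.

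Within WT no gene of these 5 lists passed the test for IL-10, beside 0.0311% of all probe sets. Without adjustment, 0 to 6 genes of a list were higher and 0 to 2 lower at p under 0.05, beside 4.69% and 4.58% of all probe sets. In miR-155-/- BMDM, IL-10 gave 1 higher and 0 lower of the other CC chemokines, 1 and 1 of the receptors, 0 and 2 of the regulators, 4 and 1 of the IL-10 and STAT3 list and 2 and 0 of the STAT6 list. There 2.68% of all probe sets were called, so more calls than in WT are not particular to these lists. Between genotypes under LPS, 0 were higher and 1 lower of the other CC chemokines, 1 and 0 of the receptors, 2 and 0 of the regulators, 1 and 0 of the IL-10 and STAT3 list and 0 and 1 of the STAT6 list. Of all probe sets 1.46% were called in that comparison. Between genotypes with IL-10 and for the difference of the IL-10 effect, 0 genes of these lists were called, beside 0.0711% and 0.0333% of all probe sets. Without adjustment 0 to 4 of a list were higher and 0 to 1 lower in the former, beside 5.59% and 3.35% of all probe sets. In the latter 0 to 3 of a list went either way, beside 10.4% in both directions together.

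The 3 chemokine genes that varied most over the 8 arrays were *Ccl4* (SD 0.53), *Ccl5* (0.52) and *Ccl7* (0.31). Among 1443 other genes with a mean of at least 6 and a range of at least 1, the pattern most like that of *Ccl4* was that of *Arg2*, the mitochondrial arginase (Pearson r = 0.952), followed by *Rnf157* (0.929), *Tnfsf9* (0.924), *Ccl8* (0.919) and *Prss46* (0.914). For *Ccl5* it was *Zswim7* (0.997), *Cd274* (0.994), *Slc15a3* (0.993), *Zc3h12c* (0.989) and *Gch1* (0.989). For *Ccl7* it was *Tpx2* (0.991), *Tmem273* (0.959), *Ambp* (0.958), *Atrnl1* (0.956) and *Nek6* (0.955). These are descriptions over 8 arrays in 4 groups that share donors and treatments, so genes with like group means correlate.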

How the data were processed

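The 8 arrays (Affymetrix Mouse Genome, NuGEN amplification and biotin labelling) were used as deposited by the authors, as log2 values made with RMA in the affy package. The submitters also name limma, and versions were not stated. There were 0 array columns of no sample, and the number of arrays limits the precision. Symbols came from the array annotation (34958 of 45101 probe sets had 1 symbol, 932 several and 9211 none; 34754 matched RefSeq by Entrez ID and 0 needed an update). RefSeq gave the order of genes, and no build is tied to the array.

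Differences were tested with limma 3.58.1 (R 4.3.3, lmFit, eBayes, two-sided) on group means of all 8 arrays, with the donor as a random block (duplicateCorrelation, 0.240). P-values were adjusted by Benjamini-Hochberg over 45014 probe sets, without 64 controls and 23 sex-linked ones, and called under 0.05. There were 7 comparisons. A donor was read from the genotype and replicate labels, and deviations from group means correlated within donors at r = 0.754 in WT and 0.230 in miR-155-/- arrays. The pipeline was tested on simulated data. The alternatives are named with their effect in the closing section. Python 3.11.15 and matplotlib 3.10.9 drew the plots.

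The 10 genes, 5 gene lists and 7 marker lists were chosen with earlier results of these data known. Differences, SEs and adjusted p-values are given for a chemokine where its unadjusted p was under 0.05, and list genes are named when called, at most 6 per comparison by size, with exceptions stated. The labels and the methods differ on culture and sex, and the labels were followed. Whether a probe set reads related chemokine transcripts was not analysed here. Some list genes are left out of the text.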

Additional observations from a re-analysis of the deposited data

How the results depend on the processing

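Counts of the 10 genes called at an adjusted p under 0.05 depended on the fit. No direction reversed among the 22 chemokine differences with an unadjusted p under 0.05, or the 31 called differences of the pathway lists. The smaller differences were compared only without WT donor 1, where some changed sign (*Ccl24* with IL-10 averaged over both genotypes from 0.04 to -0.09, *Ccl17* there from -0.01 to 0.01, *Ccl7* between genotypes under LPS from -0.07 to 0.10). With IL-10 averaged over both genotypes (2 called), there were 0 with no replicate block, 0 with the replicate number as a fixed replicate block, 0 by the study's selection (unadjusted p under 0.05 and a log2 difference over 1), 0 to 2 with 1 array left out (2 without WT(LPS) replicate 1, *Ccl5* and *Ccl7*) and 2 with the donor as a fixed block (*Ccl4* and *Ccl5*). Probe sets with a mean of at least 6, which leaves 7 of the 10 genes, or an intensity trend with robust hyperparameters gave 4 each (*Ccl4*, *Ccl5*, *Ccl7* and *Ccl12*). Those settings also gave 1 and 1 in WT (*Ccl4*, from 0), 4 and 4 in miR-155-/- (the same names, from 0), 2 and 3 between genotypes under LPS and 2 and 3 for genotype averaged over treatments (*Ccl4* and *Ccl5*, with *Ccl3* under the trend, from 0). In miR-155-/-, 1 was called with the donor as a fixed replicate block (*Ccl5*), 2 with only the arrays compared and 2 without both arrays of WT donor 1 (*Ccl5* and *Ccl7*). Genotype averaged over treatments gave 1 with the replicate number as a fixed replicate block (*Ccl4*). The cause was not tested. The share of all probe sets called under these settings was not counted, so these counts cannot be read as particular to the chemokine genes. Median centring, repeated quantile normalization, keeping the sex-linked probe sets and averaging the probe sets of *Ccl9* moved none of these counts by over 1.5 times. With the dimmer *Ccl9* probe set, an alternative chosen after seeing the data, 3 were called (*Ccl4*, *Ccl7* and *Ccl9*). Of 445 values of single chemokines under alternatives 389 stayed on their side of the threshold, 33 newly passed and 23 no longer did. Of 566 values of list genes 386 stayed and 180 no longer passed. Where limma could not estimate a donor correlation, that of all 8 arrays was used.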
